A study of Mus musculus with 23 samples.

Results

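The 32 genes described here encode the enzymes that make, lengthen, desaturate and activate fatty acids, together with Srebf1, the main transcriptional regulator of fatty acid synthesis. They were listed by symbol for their enzyme function, and all 32 were matched among 43068 genes listed for the crush libraries and 22880 listed for the inducible knockout libraries. Transcript counts from total RNA sequencing of mouse sciatic nerves (SNs) were summed per gene in 23 libraries of 7 groups. The crush experiment held wild-type C57bl6 mice, males of 2 months by the study's methods. Its 11 libraries came from nerves at 3 days post crush (3 dpc, n = 4), from the contralateral nerves of crushed animals (n = 4) and from uncrushed surgery controls (n = 3), and the injured piece was taken distal to the crush. The inducible knockout (iKO) experiment held 12 libraries at 3 months post tamoxifen (3 mpT), with n = 3 each of Dicer iKO, Dicer control, Dgcr8 iKO and Dgcr8 control. Dicer iKO mice carried a CreERT2 transgene (-/+) with Dicer1 flox/flox and Dgcr8 iKO mice the same transgene (-/+) with Dgcr8 flox/flox, on a C57bl6 background. Each control group lacked CreERT2 (-/-) but carried the same homozygous floxed alleles and received the same tamoxifen, started at 8 to 10 weeks of age. CreERT2 was driven by regulatory sequence that acts in myelinating Schwann cells, so the other cells of the nerve kept their alleles, and the study analysed only mutants with visible nerve changes.

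Fatty acid synthesis starts from acetyl-CoA in the cytosol: acetyl-CoA carboxylase makes malonyl-CoA, fatty acid synthase builds palmitate, and NADPH from malic enzyme and other sources supplies the electrons. Palmitate and dietary fatty acids are lengthened in the endoplasmic reticulum by a cycle of condensation (Elovl enzymes), reduction (Hsd17b12), dehydration (Hacd enzymes) and a last reduction (Tecr), and double bonds are placed by the Scd and Fads desaturases. Myelinating Schwann cells are rich in these enzymes, because myelin is a lipid-dense membrane with many very long-chain and monounsaturated acyl chains. SREBP proteins, made from Srebf1 and Srebf2, switch on many of these genes when they are released from the endoplasmic reticulum.

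Total counts ranged from 5594859 to 12806066 per library, and 3 counts, taken as the detection limit for counting error, corresponded to 0.234 to 0.453 CPM (counts scaled to library size) in the crush libraries and 0.296 to 0.536 CPM in the iKO libraries. CPM values below are normalized by the trimmed mean of M values (TMM) within each experiment and are listed in replicate order. Dicer1 was at 87.4 to 90.5 CPM in Dicer control and 81.3 to 82.1 CPM in Dicer iKO nerves. Dgcr8 was at 35.4 to 41.8 CPM in Dgcr8 control and 39.4 to 54.0 CPM in Dgcr8 iKO nerves, so it was not lower in the mutant. These counts were summed over the whole gene, and the loss of the floxed exon was not tested. The study itself reported reduced mRNA of the targeted gene in each mutant, by real-time PCR in larger groups of mice. Dicer1 was lower in Dicer iKO nerves here too, without overlap. For Dgcr8 the direction differed from the study, across unlike measures and sample sets, and the cause was not tested. Summed over 10 myelin markers, the level was 45593.8 to 48478.5 CPM in uncrushed, 47468.1 to 61790.6 in contralateral and 2131.9 to 3174.1 in 3 dpc nerves, and all groups carried the markers of the labelled tissue. The Dicer control libraries differed among themselves. Summed over 10 macrophage markers, Dicer control 1, 2 and 3 held 959.7, 549 and 283 CPM, against 267.9 to 316.7 CPM in Dgcr8 control nerves. Summed over 6 fibroblast markers, they held 11363.7, 8435.0 and 3788.2 CPM, against 4120.2 to 5264.7 CPM in Dgcr8 control nerves. The fibroblast sum was 12121.4 to 13198.3 CPM in Dicer iKO and 8746.3 to 11246.2 CPM in Dgcr8 iKO nerves. Dicer control 2 and Dgcr8 iKO 2 held 56.6 and 45.3 CPM of the adipocyte gene Cfd, which reached at most 3.24 CPM in the other iKO libraries.

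At 3 dpc, most genes of fatty acid synthesis, elongation and desaturation fell, and 3 members rose by at least 2-fold: Acsl5, Acsl4 and Hacd4. The deepest falls against uncrushed nerves were those of Elovl4 (10.1-fold), Elovl6 (9.98-fold), Acss2 (7.40-fold) and Elovl7 (7.13-fold). A member was counted as risen or fallen when its adjusted p was at most 0.05 (edgeR's quasi-likelihood test, adjusted over all genes tested). Against uncrushed nerves, 23 of 30 tested members fell and 5 rose, where 33.4% and 33.8% of 17433 tested genes did so; with a 2-fold limit the numbers were 17 and 3, against 21.1% and 15.3%. Against contralateral nerves, 22 members fell and 4 rose, where 32.9% and 33.5% of 16667 genes did so; with the 2-fold limit these were 17 and 3, against 13.6% and 14.6%. The median log2 fold change over the members was -1.18 and -1.39 in the 2 comparisons, against -0.03 and -0.06 over all genes tested. Both comparisons use the same 3 dpc libraries, so they are not separate evidence. In 22 members the fall, and in 4 the rise, passed the test against both control groups, where 25.9% and 31.1% of 16541 genes did so.

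In the iKO nerves fewer members passed: Acss2, Elovl4, Tecr, Me1, Fads1 and Acly fell and Acsl5, Hacd4, Acsl4 and Srebf1 rose in both mutants, 6 and 4 of 30 members, where 7.23% and 10.8% of 12897 genes did so. In Dgcr8 iKO nerves 14 of 30 members fell and 7 rose, where 20.6% and 23.9% of 13252 genes did so, and with the 2-fold limit 7 fell and 4 rose, against 6.99% and 13.4%. In Dicer iKO nerves 6 members fell and 4 rose, where 8.88% and 12.3% of 13045 genes did so, and with the 2-fold limit 0 fell and 2 rose, against 1.64% and 7.37%. The Dicer counts depended on single libraries: without Dicer iKO 2 or Dicer iKO 3 no member passed, without Dicer control 2 only 1 did (a fall), and without Dicer control 1 11 fell and 3 rose. The share of all genes that fell moved too, to 1.34% without Dicer iKO 2, 1.31% without Dicer iKO 3, 1.95% without Dicer control 2 and 10% without Dicer control 1, and the share that rose to 5.31%, 5.05%, 5.41% and 13.1%. Each of the 10 Dicer calls was lost under 3 to 9 of 15 alternative settings. The median log2 fold change of the members was -0.34 in Dgcr8 and -0.26 in Dicer iKO nerves, against -0.01 over all genes in both. Elovl2, which lengthens long polyunsaturated chains, and Elovl3, an elongase known from skin and brown fat, were filtered out of every comparison for low counts, with at most 1.02 and 0.51 CPM in any library.

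**Figure D1:**
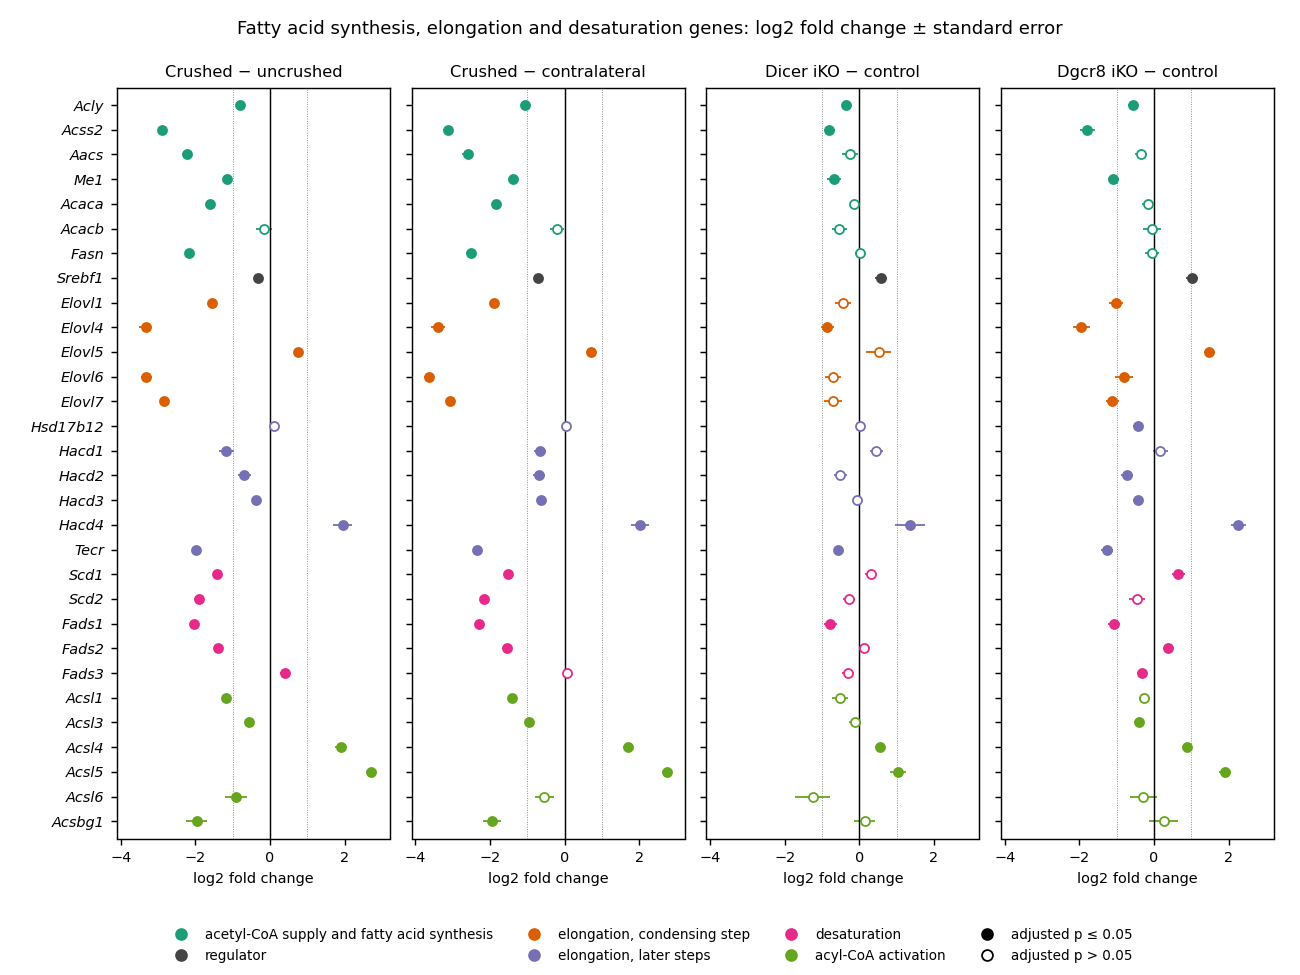
Log2 fold changes (horizontal axis) of the 30 tested members, grouped by role, for 3 dpc against uncrushed and contralateral nerves and for Dicer and Dgcr8 iKO against their controls; bars are standard errors and filled points have an adjusted p of at most 0.05. Falls at 3 dpc reach -3.64 for Elovl6, while Acsl5, Acsl4 and Hacd4 lie to the right of 0 in all 4 comparisons.

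Levels can be compared between genes only per transcript length, as TPM (counts scaled to transcript length and library size), and in the crush libraries only as ranks, since 1 ribosomal RNA transcript (n-R5s193) held 61.4% to 71.8% of their TPM. Scd2 ranked first and Elovl1 second of the 32 members in all 7 groups. In Dgcr8 control nerves Scd2 was at 1315 ± 111 TPM (SD, n = 3), Elovl1 at 570.4 ± 19.6, Tecr at 397 ± 46.02, Fads1 at 282 ± 54.5 and Scd1 at 129.99 ± 18.6. Neighbours in this order differed by more than the sum of their SDs. Elovl6 held rank 3 in uncrushed and 17 in 3 dpc nerves, and Fasn rank 10 and 20. Acsl5 moved the other way, from rank 26 to 12, as did Hsd17b12, from 11 to 4, whose count itself did not pass the test at 3 dpc (Hsd17b12: 0.11 (SE 0.10, adjusted p = 0.344) against uncrushed nerves).

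Of the 7 enzymes that supply acetyl-CoA and NADPH and build palmitate, 6 fell at 3 dpc in both comparisons, where 25.9% of all genes did so. The median change of the 7 was -1.61 in log2 units relative to uncrushed nerves. In each iKO 3 of them fell (Acly, Acss2 and Me1), where 8.88% of all genes fell in Dicer and 20.6% in Dgcr8 iKO nerves. Fasn, fatty acid synthase itself, did not pass the test in either mutant.

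Acss2 makes acetyl-CoA from acetate. At 3 dpc it was at 4.09, 4.81, 4.31 and 3.96 CPM, against 36.05, 34.02 and 32.2 in uncrushed and 37.5, 43.6, 38.5 and 33.2 in contralateral nerves. All 3 dpc libraries lay far below every control library (log2 fold change -2.89, SE 0.12, adjusted p = 1.19e-09 against uncrushed; -3.14, SE 0.12, adjusted p = 2.54e-11 against contralateral nerves). Dicer control nerves held 39.4, 48.1 and 52.02 CPM and Dicer iKO nerves 29.3, 27.3 and 23.3, again without overlap (log2 fold change -0.80, SE 0.15, adjusted p = 0.0102). In Dgcr8 control nerves it was at 79.8, 72.9 and 61.98 CPM, and in Dgcr8 iKO nerves at 22.2, 25.6 and 14.3. These groups were again apart (log2 fold change -1.79, SE 0.19, adjusted p = 3.99e-05). The difference between the 2 mutant effects was -0.98 (SE 0.27, adjusted p = 0.172), which did not pass.

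Acly, the enzyme that splits exported citrate into acetyl-CoA and oxaloacetate, was at 113, 134 and 128 CPM in uncrushed, 139.9, 162, 133 and 129 in contralateral and 66.4, 74.9, 67.2 and 57.7 in 3 dpc nerves. The 3 dpc libraries were the 4 lowest, but its fall was less than that of Acss2 (log2 fold change -0.81, SE 0.10, adjusted p = 1.61e-05; -1.07, SE 0.10, adjusted p = 1.88e-07 against contralateral). Its iKO levels were 154, 175 and 164 CPM in Dicer control, 141, 125 and 121 in Dicer iKO, 201, 217 and 206 in Dgcr8 control and 150.04, 146 and 123 in Dgcr8 iKO nerves. Neither mutant overlapped its control, and the fall was -0.35 in Dicer (SE 0.10, adjusted p = 0.0474) and -0.58 in Dgcr8 iKO nerves (SE 0.13, adjusted p = 0.00368). The Dicer call was lost under 9 of 15 alternative settings, with the fall between -0.30 and -0.41 in the replicate-wise ones.

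Me1, cytosolic malic enzyme and a source of NADPH, went from 122, 126 and 127 CPM in uncrushed and 134, 142, 139 and 134 in contralateral nerves to 49.6, 59.5, 53.6 and 46.4 at 3 dpc. No 3 dpc library came near a control (log2 fold change -1.16, SE 0.09, adjusted p = 3.7e-07; -1.38, SE 0.08, adjusted p = 1.38e-09 against contralateral). In the iKO experiment it was at 169, 170.4 and 193 CPM in Dicer control, 145, 94.9 and 92.7 in Dicer iKO, 183, 183 and 175 in Dgcr8 control and 78.6, 105 and 71.03 in Dgcr8 iKO nerves. Both mutants lay below their controls, with Dicer iKO 1 the nearest (log2 fold change -0.68, SE 0.18, adjusted p = 0.0347 in Dicer; -1.09, SE 0.15, adjusted p = 0.000201 in Dgcr8).

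Acaca, the carboxylase that makes malonyl-CoA for synthesis, spanned 215 to 274 CPM in the control nerves and 66.4 to 77.7 CPM at 3 dpc (log2 fold change -1.61, SE 0.10, adjusted p = 3.31e-08). Fasn spanned 309 to 471 CPM in control nerves and 55.99 to 81.2 at 3 dpc (log2 fold change -2.16, SE 0.12, adjusted p = 1.91e-08), and Aacs, which activates acetoacetate, 50.9 to 78.9 and 9.05 to 13.2 CPM (log2 fold change -2.23, SE 0.13, adjusted p = 2.6e-08). For these 3 genes no 3 dpc library overlapped a control library. Acacb, the carboxylase whose malonyl-CoA restrains fatty acid import into mitochondria, was at 4.09 to 7.10 CPM in all crush libraries and did not pass (adjusted p = 0.543 and 0.375). In the mutants Fasn did not pass either: its log2 fold change was 0.02 (95% interval -0.27 to 0.30) in Dicer and -0.06 (-0.47 to 0.35) in Dgcr8 iKO nerves. The corresponding intervals were -0.41 to 0.13 and -0.49 to 0.14 for Acaca, -0.73 to 0.24 and -0.70 to -0.01 for Aacs, and -1.02 to -0.07 and -0.61 to 0.49 for Acacb. The intervals for Acss2 were -1.14 to -0.47 and -2.21 to -1.36, and those for Fasn did not reach them.

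**Figure D2:**
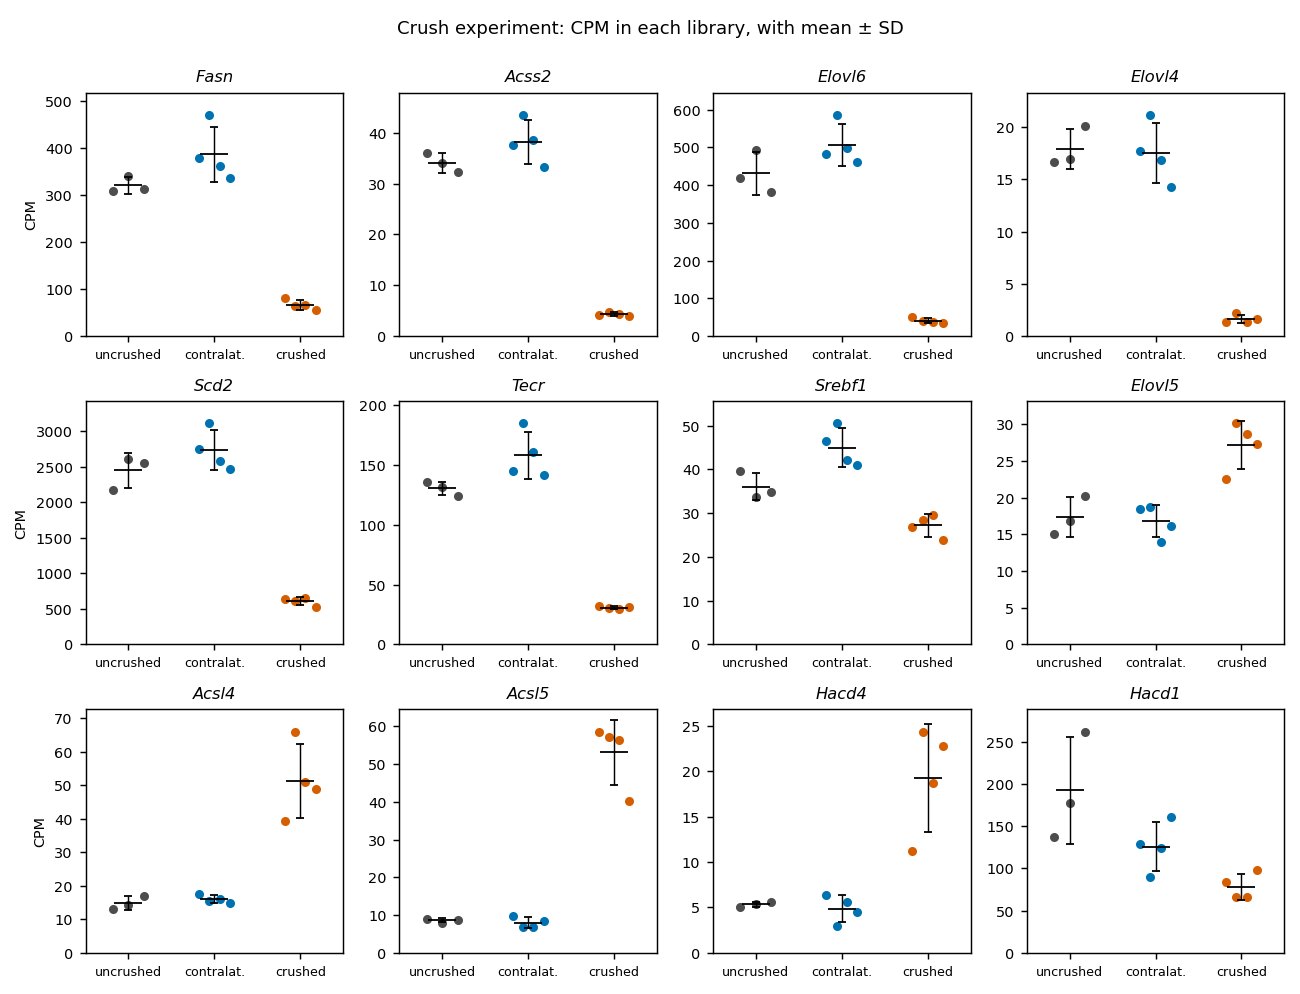
Normalized CPM (vertical axes from 0) of 12 members in each of the 11 crush libraries, in uncrushed, contralateral and 3 dpc (crushed) nerves; each point is 1 library and lines give the mean and SD. The 3 dpc points of Acss2, Elovl4 and Elovl6 lie below all control points, and those of Acsl5, Acsl4 and Hacd4 above them.

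Srebf1 encodes SREBP1, which binds the promoters of lipogenic genes. It was at 39.6, 33.8 and 34.8 CPM in uncrushed, 46.4, 50.6, 42.1 and 40.9 in contralateral and 26.9, 28.5, 29.6 and 23.8 in 3 dpc nerves. The 3 dpc libraries were the lowest, the uncrushed libraries intermediate and the contralateral ones the highest, without overlap (log2 fold change -0.31, SE 0.10, adjusted p = 0.0181 against uncrushed; -0.72, SE 0.10, adjusted p = 1.26e-05 against contralateral). The fall against uncrushed nerves was small, and it did not pass without the count filter (-0.08, adjusted p = 0.682) or without uncrushed replicate 1 (-0.18, adjusted p = 0.152). In the crush files 46.2% to 57.6% of its length-scaled level, by group mean, was assigned to Srebf1-210, a short processed transcript that the iKO files do not list. In the iKO experiment Srebf1 went in the other direction. Dicer control libraries held 107, 108 and 94.4 CPM, Dicer iKO 115, 166 and 179.8, Dgcr8 control 88.4, 99.6 and 86.6 and Dgcr8 iKO 230.4, 161 and 161 CPM. Each iKO group lay above its control, and the rise passed in both (log2 fold change 0.58, SE 0.17, adjusted p = 0.0468 in Dicer; 1.01, SE 0.16, adjusted p = 0.000459 in Dgcr8). The Dicer call was lost under 6 of 15 alternative settings, among them leaving out any Dicer control library. Acly, Acss2, Me1, Elovl4, Tecr and Fads1 fell in those same nerves.

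Of the 5 condensing enzymes tested, 4 fell at 3 dpc (Elovl1, Elovl4, Elovl6 and Elovl7) and Elovl5 rose against both controls, where 25.9% and 31.1% of all genes did so. The same 4 fell and Elovl5 rose in Dgcr8 iKO nerves, against 20.6% and 23.9% of all genes. In Dicer iKO nerves Elovl4 alone passed, with a fall, against 8.88% of all genes. The 300-base promoters of 3 of these genes are shown here because their expression went in opposite directions at 3 dpc: Elovl4 and Elovl6 fell the most and Elovl5 rose. They are RefSeq sequences of build GRCm38.p6 from 250 bases before to 50 bases after the start, written 5′ to 3′ on the gene's strand. Capitals mark the E-box CACGTG, the CCAAT box and the GC box GGGCGG, read on either strand, with touching matches run together.
Elovl4, chr9:83806256-83806555, minus strand: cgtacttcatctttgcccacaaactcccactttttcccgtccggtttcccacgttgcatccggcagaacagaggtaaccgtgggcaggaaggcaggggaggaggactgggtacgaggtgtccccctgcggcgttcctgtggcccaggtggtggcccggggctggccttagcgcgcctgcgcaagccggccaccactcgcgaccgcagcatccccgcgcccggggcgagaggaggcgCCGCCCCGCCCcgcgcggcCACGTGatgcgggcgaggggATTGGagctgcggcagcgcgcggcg
Elovl6, chr3:129532136-129532435, plus strand: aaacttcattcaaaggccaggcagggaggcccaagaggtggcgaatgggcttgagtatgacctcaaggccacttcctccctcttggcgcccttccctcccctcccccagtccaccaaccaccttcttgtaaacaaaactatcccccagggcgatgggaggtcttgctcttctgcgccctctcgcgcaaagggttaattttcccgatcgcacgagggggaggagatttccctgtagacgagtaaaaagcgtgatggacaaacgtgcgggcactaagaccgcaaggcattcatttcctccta
Elovl5, chr9:77917115-77917414, plus strand: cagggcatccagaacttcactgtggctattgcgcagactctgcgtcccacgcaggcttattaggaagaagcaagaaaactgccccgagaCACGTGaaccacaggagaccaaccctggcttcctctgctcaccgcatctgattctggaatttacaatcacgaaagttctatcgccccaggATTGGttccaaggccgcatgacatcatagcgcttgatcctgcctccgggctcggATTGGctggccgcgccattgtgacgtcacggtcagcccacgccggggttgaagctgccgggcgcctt

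The Elovl4 and Elovl5 windows each held 1 E-box, and the Elovl6 window held none of these letters. Promoters were matched for 28 of 32 members. The E-box, a site also bound by SREBP and other basic helix-loop-helix factors, was in 3 of them (Elovl4, Elovl5 and Hacd3), or 10.7%, against 7.15% of all 32851 promoters of the same length. CCAAT was in 14 (50%, against 37.4%) and GGGCGG in 20 (71.4%, against 35.7%). The sterol regulatory element, searched as TCACNCCAC on both strands, was in none of the 28 windows and in 1.24% of all. For each member 1 promoter was taken, the nearest to the start of its most abundant coding transcript. The set of all promoters was not limited in that way, nor to coding or expressed genes, so these shares compare unlike sets. A match is only a match of letters, and elements outside the window were not searched.

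Elovl6 lengthens palmitate to stearate. Uncrushed nerves held 418, 494 and 381 CPM, contralateral nerves 482, 587, 499 and 461 and 3 dpc nerves 49.6, 39.4, 38.3 and 33.7. Every 3 dpc library was far below the lowest control (log2 fold change -3.32, SE 0.14, adjusted p = 2.08e-09 against uncrushed; -3.64, SE 0.13, adjusted p = 1.02e-11 against contralateral). Among iKO libraries it was at 156, 233 and 268 CPM in Dicer control, 161, 131 and 112 in Dicer iKO, 259, 250.3 and 305 in Dgcr8 control and 158, 217 and 91.9 in Dgcr8 iKO nerves. Dicer iKO 1 overlapped Dicer control 1 and the comparison did not pass (log2 fold change -0.70, SE 0.22, adjusted p = 0.0551), while the Dgcr8 groups were apart with a wide spread within iKO (log2 fold change -0.80, SE 0.25, adjusted p = 0.0221).

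Elovl4, the enzyme of ultra-long chains, was at 16.6, 17.01 and 20.1 CPM in uncrushed and 17.7, 21.2, 16.9 and 14.3 in contralateral nerves, against 1.36, 2.20, 1.38 and 1.60 at 3 dpc. The 3 dpc levels were several times the detection limit and far below all controls (log2 fold change -3.33, SE 0.18, adjusted p = 1.29e-08; -3.40, SE 0.19, adjusted p = 1.02e-09 against contralateral). The Dicer control group held 23.99, 30.1 and 27.97 CPM, Dicer iKO 17.97, 15.2 and 12.04, Dgcr8 control 24.4, 25.03 and 35.03 and Dgcr8 iKO 9.67, 6.87 and 5.37. Both mutants were below their controls without overlap, and the log2 fold change was -0.86 (SE 0.18, adjusted p = 0.0152) in Dicer and -1.95 (SE 0.23, adjusted p = 6.94e-05) in Dgcr8 iKO nerves. The difference between the mutant effects was -1.09 (SE 0.31, adjusted p = 0.184).

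Elovl1, which makes saturated and monounsaturated very long chains of the kind found in myelin sphingolipids, was at 184, 179.98 and 184 CPM in uncrushed, 199.9, 251, 219 and 199 in contralateral and 67.6, 49.8, 59.96 and 53.2 in 3 dpc nerves. The 3 groups did not overlap, and the fall at 3 dpc passed against both controls (log2 fold change -1.56, SE 0.11, adjusted p = 1.76e-07; -1.90, SE 0.12, adjusted p = 2.86e-09 against contralateral). Its iKO levels were 179.98, 249 and 321 CPM in Dicer control, 217, 166 and 171 in Dicer iKO, 336, 382 and 347 in Dgcr8 control and 212, 193 and 123 in Dgcr8 iKO nerves. Dicer control 1 was within the range of Dicer iKO (log2 fold change -0.43, SE 0.21, adjusted p = 0.184), and Dgcr8 iKO lay below all Dgcr8 controls (log2 fold change -1.01, SE 0.19, adjusted p = 0.0014). Elovl7, an elongase of saturated very long chains, spanned 70.3 to 99.1 CPM in control and 9.44 to 11.2 CPM in 3 dpc nerves (log2 fold change -2.83, SE 0.11, adjusted p = 6.83e-10), and it fell by 1.12 in Dgcr8 iKO nerves (SE 0.18, adjusted p = 0.000504).

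Elovl5 lengthens polyunsaturated chains, and its rise was modest at 3 dpc. It was at 15.01, 16.8 and 20.3 CPM in uncrushed, 18.4, 18.7, 13.9 and 16.1 in contralateral and 22.5, 30.1, 28.7 and 27.2 in 3 dpc nerves. All 3 dpc libraries were above all controls (log2 fold change 0.76, SE 0.13, adjusted p = 0.000224; 0.70, SE 0.12, adjusted p = 0.000115 against contralateral). Levels at 3 mpT were 98.3, 72.7 and 35.3 CPM in Dicer control, 78.0, 115 and 102 in Dicer iKO, 35.9, 34.8 and 44.7 in Dgcr8 control and 116, 111 and 96.6 in Dgcr8 iKO nerves. Dicer control 1 was as high as the Dicer iKO libraries and control 3 as low as the Dgcr8 controls, and the Dicer comparison did not pass (log2 fold change 0.52, SE 0.33, adjusted p = 0.299), while the Dgcr8 groups were widely apart (log2 fold change 1.48, SE 0.14, adjusted p = 1.64e-05). Without Dicer control 1 the Dicer value was 0.86, adjusted p = 0.0768.

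The later steps of the elongation cycle were split among members. Of 6 genes, 4 fell and Hacd4 rose at 3 dpc against both controls, where 25.9% and 31.1% of all genes did so. The same numbers held in Dgcr8 iKO nerves, with Hacd1 and Hsd17b12 exchanging places among those that fell, against 20.6% and 23.9% of all genes.

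Tecr, the last reductase of the cycle, was at 135, 131 and 124 CPM in uncrushed, 145, 185, 161 and 141 in contralateral and 31.8, 30.1, 29.7 and 31.3 in 3 dpc nerves. The 3 dpc libraries were nearly equal to each other and far below the controls (log2 fold change -1.98, SE 0.09, adjusted p = 3.71e-09; -2.35, SE 0.10, adjusted p = 1.05e-10 against contralateral). Dicer control nerves held 149, 156 and 179.6 CPM, Dicer iKO 124, 100.4 and 102, Dgcr8 control 235, 211 and 223 and Dgcr8 iKO 103, 107 and 71.03. Neither mutant overlapped its control, with a log2 fold change of -0.57 (SE 0.12, adjusted p = 0.0183) in Dicer and -1.25 (SE 0.16, adjusted p = 0.000127) in Dgcr8 iKO nerves.

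Hacd4, 1 of 4 dehydratases, rose in all 4 comparisons. It was at 5.03, 5.38 and 5.62 CPM in uncrushed, 6.32, 2.98, 5.62 and 4.51 in contralateral and 11.2, 24.4, 18.7 and 22.8 in 3 dpc nerves. The 3 dpc levels were spread but all above the controls, with 3 dpc replicate 1 the lowest (log2 fold change 1.95, SE 0.25, adjusted p = 2.75e-05; 2.01, SE 0.24, adjusted p = 4.56e-06 against contralateral). Dicer control libraries held 27.1, 19.7 and 7.70 CPM, Dicer iKO 35.5, 54.9 and 49.1, Dgcr8 control 8.85, 8.03 and 10.5 and Dgcr8 iKO 43.2, 32.8 and 56.2. Dicer control 1 was the highest control and control 3 lay near the Dgcr8 controls (log2 fold change 1.36, SE 0.39, adjusted p = 0.0444 in Dicer; 2.26, SE 0.21, adjusted p = 1.52e-05 in Dgcr8). In the crush libraries replicate 1 at 3 dpc also held the lowest summed level of macrophage markers, 692 CPM against 1234 to 1651 in the other 3 dpc libraries. Elovl5 and Acsl4 were likewise lowest in that library among 3 dpc nerves, whereas Acsl5 was highest there. In the iKO libraries Dicer control 1 held the highest macrophage level of any control. The part of these cells in Hacd4 was not tested.

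Hacd1, the dehydratase known from skeletal muscle, was at 138, 178 and 262 CPM in uncrushed, 129, 90.01, 125 and 161 in contralateral and 83.9, 65.6, 66.3 and 97.8 in 3 dpc nerves. Uncrushed nerves varied by nearly 2-fold among themselves, and contralateral replicate 2 lay within the range of the 3 dpc libraries (log2 fold change -1.18, SE 0.20, adjusted p = 0.000262; -0.66, SE 0.16, adjusted p = 0.0026 against contralateral). In the crush libraries 97.4% to 99.3% of its length-scaled level, by group mean, was assigned to Hacd1-204, annotated for nonsense-mediated decay, and with coding transcripts alone Hacd1 was too low to be tested there. In the iKO experiment it was at 11.1, 8.73 and 10.8 CPM in Dicer control, 16.2, 13.8 and 11.9 in Dicer iKO, 11.2, 17.96 and 12.5 in Dgcr8 control and 16.9, 15.4 and 14.3 in Dgcr8 iKO nerves. The groups were apart in Dicer and overlapped in Dgcr8, and neither passed (adjusted p = 0.119 and 0.51). The share of Hacd1-204 was 80.9% in Dgcr8 control and 39.8% in Dgcr8 iKO nerves, and over coding transcripts alone, a count chosen after seeing the data, Hacd1 rose in Dgcr8 iKO nerves (log2 fold change 2.23, adjusted p = 0.00135).

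Hacd2 and Hacd3 fell at 3 dpc (-0.69 and -0.38 against uncrushed nerves, adjusted p = 0.00441 and 0.00474) and in Dgcr8 iKO nerves (-0.71 and -0.44, adjusted p = 0.00406 and 0.0191). Hsd17b12, the ketoacyl-CoA reductase, spanned 59.99 to 77.8 CPM in control and 60.3 to 77.96 CPM in 3 dpc nerves, with overlap and no call. It fell in Dgcr8 iKO nerves (log2 fold change -0.43, SE 0.14, adjusted p = 0.024) and did not pass in Dicer iKO nerves (log2 fold change 0.03, SE 0.10, adjusted p = 0.863), and the difference between the mutants did not pass (adjusted p = 0.283). In Dgcr8 iKO nerves the Hsd17b12 call was lost under 4 and the Hacd3 call under 3 of 15 alternative settings.

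Among the 5 desaturases, Scd1, Scd2, Fads1 and Fads2 fell at 3 dpc against both controls, where 25.9% of all genes did so. In Dgcr8 iKO nerves Fads1 and Fads3 fell while Scd1 and Fads2 rose, against 20.6% and 23.9% of all genes. In Dicer iKO nerves Fads1 alone passed, with a fall, against 8.88% of all genes. Scd1 and Scd2 are close paralogs on chromosome 19 in a cluster with further Scd genes, so reads they share may have been split between them by the counting.

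Scd2, a stearoyl-CoA desaturase that makes oleate and the most abundant member per length, was at 2169, 2612 and 2554 CPM in uncrushed, 2748, 3109.7, 2582 and 2466 in contralateral and 631, 607, 657 and 532 in 3 dpc nerves. The 3 dpc libraries were close together and all below the controls (log2 fold change -1.91, SE 0.12, adjusted p = 3.85e-08; -2.16, SE 0.11, adjusted p = 3.21e-10 against contralateral). Its iKO levels were 2644, 3095 and 3467 CPM in Dicer control, 2881, 2397 and 2336 in Dicer iKO, 3536, 4376 and 3997 in Dgcr8 control and 2856, 3566 and 2268 in Dgcr8 iKO nerves. Both mutants overlapped their controls, and neither passed: the 95% interval of the log2 fold change was -0.66 to 0.12 in Dicer and -0.94 to 0.03 in Dgcr8 iKO nerves. Without Dgcr8 iKO 2, 1 of the libraries with adipocyte genes, the Dgcr8 value did pass (-0.63, adjusted p = 0.0391).

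Scd1, the main desaturase of liver and fat, was at 484, 529 and 539 CPM in uncrushed, 549.8, 556, 468 and 519 in contralateral and 207, 181, 173 and 157 in 3 dpc nerves. The 3 dpc libraries lay below all controls (log2 fold change -1.42, SE 0.11, adjusted p = 2.46e-07; -1.53, SE 0.10, adjusted p = 4.68e-09 against contralateral). Among iKO libraries it was at 499, 572 and 401 CPM in Dicer control, 539, 666 and 603 in Dicer iKO, 367, 313 and 353 in Dgcr8 control and 627, 597 and 402 in Dgcr8 iKO nerves. The Dicer groups overlapped (log2 fold change 0.30, SE 0.16, adjusted p = 0.21), and Dgcr8 iKO was above its control, with iKO 3 the nearest (log2 fold change 0.65, SE 0.18, adjusted p = 0.014). The Dgcr8 rise did not pass without Dgcr8 iKO 1 (0.53, adjusted p = 0.0734).

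Fads1, a desaturase of polyunsaturated fatty acids, was at 278, 295 and 265 CPM in uncrushed, 307, 338, 302 and 309 in contralateral and 65.4, 64.8, 64.6 and 57.2 in 3 dpc nerves. The 3 groups were all apart, with 3 dpc the lowest (log2 fold change -2.05, SE 0.09, adjusted p = 2.94e-09; -2.30, SE 0.08, adjusted p = 8.57e-12 against contralateral). The Dicer control group held 505, 550.3 and 643 CPM, Dicer iKO 409, 291 and 287, Dgcr8 control 516, 462 and 592 and Dgcr8 iKO 223, 285 and 235. Both mutants were below their controls (log2 fold change -0.78, SE 0.17, adjusted p = 0.0188 in Dicer; -1.08, SE 0.16, adjusted p = 0.000288 in Dgcr8).

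Fads2 acts in the same pathway of polyunsaturated chains and lies next to Fads1 on chromosome 19, and its calls in the mutants differed from those of Fads1. It was at 47.7, 47.5 and 50.3 CPM in uncrushed, 55.2, 57.2, 47.96 and 44.9 in contralateral and 17.6, 16.5, 20.3 and 14.9 in 3 dpc nerves. All 3 dpc libraries were below the controls (log2 fold change -1.38, SE 0.10, adjusted p = 2.29e-07; -1.56, SE 0.11, adjusted p = 1.64e-08 against contralateral). Its iKO levels were 53.1, 62.8 and 54.99 CPM in Dicer control, 63.1, 61.8 and 62.2 in Dicer iKO, 63.7, 53.1 and 64.4 in Dgcr8 control and 69.5, 92.7 and 75.1 in Dgcr8 iKO nerves. The Dicer groups overlapped (log2 fold change 0.13, SE 0.10, adjusted p = 0.379), and the Dgcr8 groups were apart by a narrow gap (log2 fold change 0.39, SE 0.14, adjusted p = 0.0454), a call that was lost under 6 of 15 alternative settings.

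Fads3, which acts on sphingoid bases, was at 32.99, 32.02 and 27.6 CPM in uncrushed, 32.8, 42.2, 38.03 and 34.5 in contralateral and 46.3, 34.7, 38.7 and 33.7 in 3 dpc nerves. Its 3 dpc libraries lay above the uncrushed ones but overlapped the contralateral range (log2 fold change 0.41, SE 0.13, adjusted p = 0.0149 against uncrushed; 0.07, SE 0.12, adjusted p = 0.606 against contralateral). Dicer control nerves held 60.5, 71.8 and 82.8 CPM, Dicer iKO 61.2, 47.96 and 64.1, Dgcr8 control 83.8, 84.1 and 78.04 and Dgcr8 iKO 61.8, 69.04 and 64.2. The Dicer groups overlapped (log2 fold change -0.31, SE 0.16, adjusted p = 0.195) and the Dgcr8 groups did not (log2 fold change -0.34, SE 0.11, adjusted p = 0.0303). The Dgcr8 call was lost under 5 of 15 alternative settings, and the call against uncrushed nerves under 2 of 16.

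**Figure D3:**
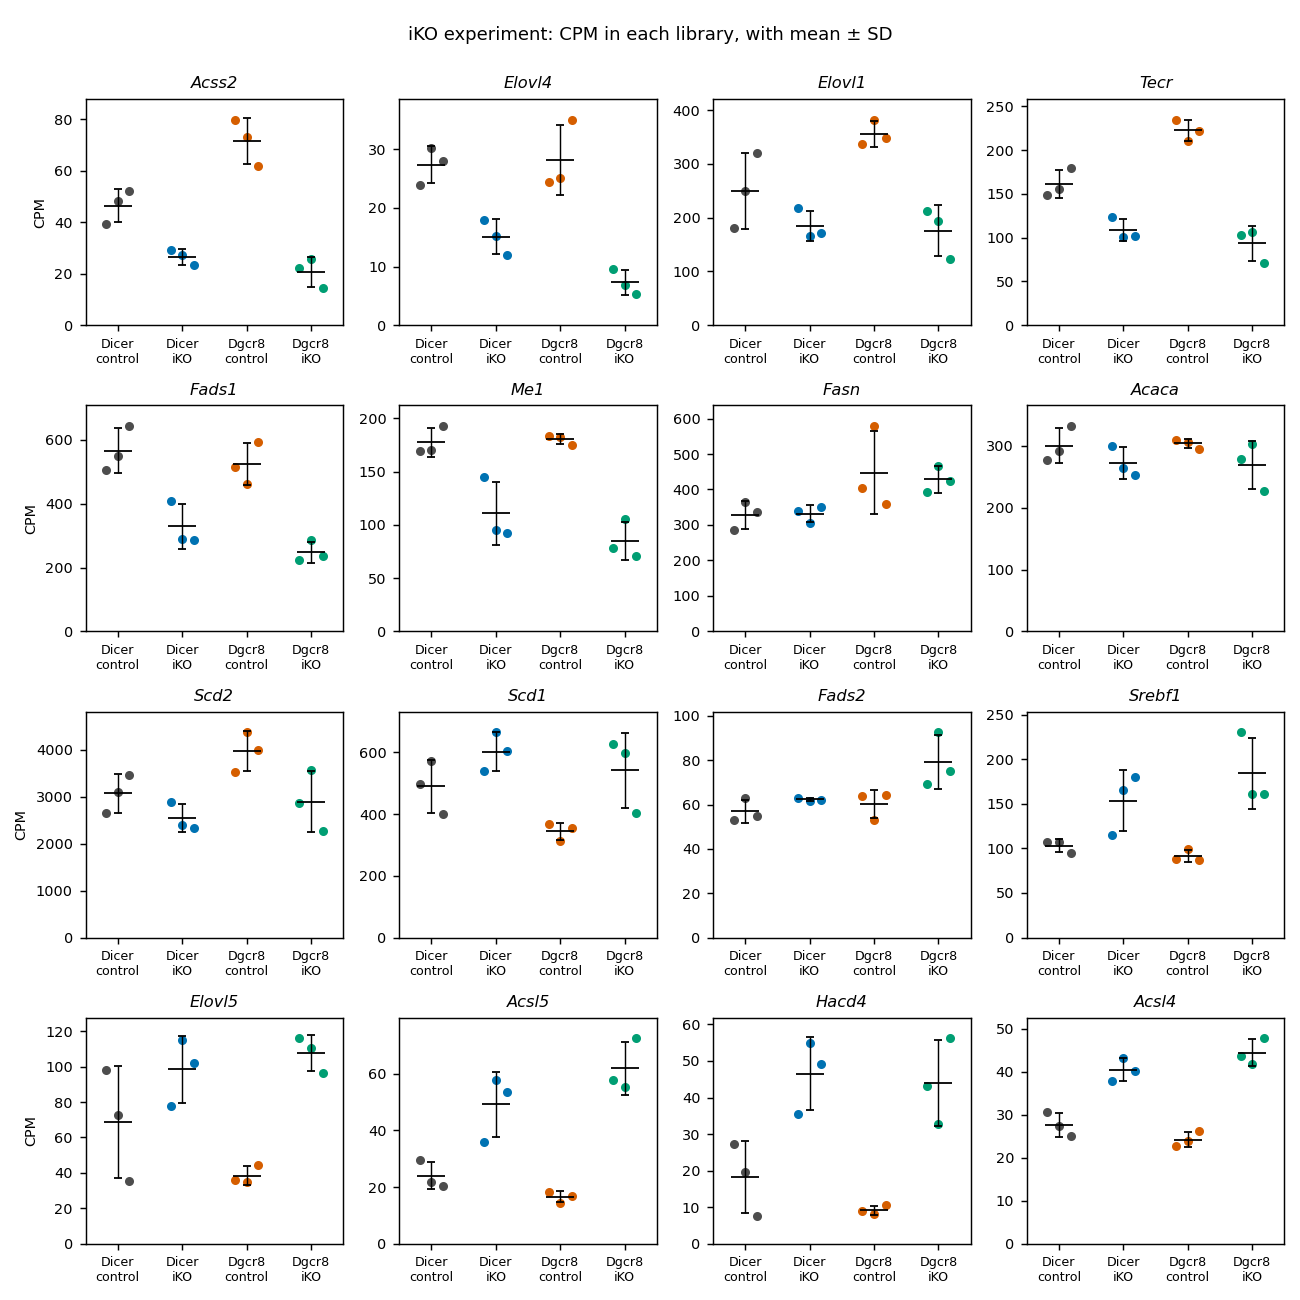
Normalized CPM (vertical axes from 0) of 16 members in each of the 12 iKO libraries, by group; each point is 1 library and lines give the mean and SD. Acss2, Elovl4, Fads1 and Tecr lie lower, and Acsl5, Acsl4, Hacd4 and Srebf1 higher, in both mutants than in their controls.

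The 6 acyl-CoA synthetases, which activate free fatty acids for every later use, moved in both directions. At 3 dpc Acsl4 and Acsl5 rose and Acsl1, Acsl3 and Acsbg1 fell against both controls, where 31.1% and 25.9% of all genes did so. Acsl4 and Acsl5 also rose in both mutants, against 10.8% of all genes, and Acsl3 fell in Dgcr8 iKO nerves, against 20.6%.

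Acsl5, a synthetase of mitochondria and endoplasmic reticulum, was at 9.08, 8.005 and 8.69 CPM in uncrushed, 9.81, 6.75, 6.92 and 8.51 in contralateral and 58.7, 57.1, 56.4 and 40.3 in 3 dpc nerves. This was the largest rise of any member at 3 dpc (log2 fold change 2.72, SE 0.14, adjusted p = 1.03e-08; 2.75, SE 0.13, adjusted p = 2.84e-10 against contralateral). Dicer control libraries held 29.4, 21.9 and 20.5 CPM, Dicer iKO 36.1, 57.8 and 53.7, Dgcr8 control 18.2, 14.4 and 17.0 and Dgcr8 iKO 57.9, 55.3 and 72.6. Neither mutant overlapped its control, although Dicer control 1 came near Dicer iKO 1 (log2 fold change 1.04, SE 0.21, adjusted p = 0.0151 in Dicer; 1.90, SE 0.15, adjusted p = 6.69e-06 in Dgcr8). Its promoter (RefSeq, GRCm38.p6, chr19:55253119-55253418, plus strand, same window and capitals) is shown against those of the falling elongases, and held 1 CCAAT box and neither E-box nor GC box.
Acsl5: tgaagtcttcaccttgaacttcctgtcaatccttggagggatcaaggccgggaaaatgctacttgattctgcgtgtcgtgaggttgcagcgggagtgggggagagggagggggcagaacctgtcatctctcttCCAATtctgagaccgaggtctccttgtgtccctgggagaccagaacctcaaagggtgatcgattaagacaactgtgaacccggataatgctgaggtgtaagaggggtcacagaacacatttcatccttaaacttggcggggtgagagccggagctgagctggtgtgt

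Acsl4, which prefers arachidonic acid, was at 13.03, 14.3 and 17.04 CPM in uncrushed, 17.6, 15.6, 15.95 and 14.9 in contralateral and 39.2, 65.98, 50.8 and 48.9 in 3 dpc nerves. Every 3 dpc library was above every control (log2 fold change 1.91, SE 0.16, adjusted p = 7.05e-07; 1.69, SE 0.13, adjusted p = 3.59e-08 against contralateral). Levels at 3 mpT were 30.6, 27.5 and 25.0 CPM in Dicer control, 37.9, 43.3 and 40.3 in Dicer iKO, 22.7, 23.8 and 26.2 in Dgcr8 control and 43.8, 41.8 and 47.8 in Dgcr8 iKO nerves. Both mutants were above their controls (log2 fold change 0.55, SE 0.12, adjusted p = 0.0176 in Dicer; 0.87, SE 0.13, adjusted p = 0.000243 in Dgcr8).

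Acsl1, the major synthetase of fat and muscle, was at 39.6, 42.9 and 38.7 CPM in uncrushed, 46.03, 46.4, 47.1 and 38.6 in contralateral and 16.7, 16.9, 18.8 and 13.9 in 3 dpc nerves. It fell without overlap (log2 fold change -1.19, SE 0.11, adjusted p = 1.19e-06; -1.41, SE 0.10, adjusted p = 1.63e-08 against contralateral). Its iKO levels were 63.3, 82.8 and 100.1 CPM in Dicer control, 72.5, 49.7 and 49.0 in Dicer iKO, 68.2, 68.8 and 94.7 in Dgcr8 control and 61.6, 74.3 and 58.1 in Dgcr8 iKO nerves. Both mutants overlapped their controls and neither passed (95% intervals -1.01 to -0.03 in Dicer and -0.61 to 0.09 in Dgcr8; adjusted p = 0.118 and 0.205).

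Acsl3, a synthetase of lipid droplets, was at 48.6, 61.4 and 55.7 CPM in uncrushed, 70.6, 73.7, 65.01 and 60.2 in contralateral and 40.8, 34.9, 32.7 and 30.3 in 3 dpc nerves. It fell at 3 dpc, where the groups were apart (log2 fold change -0.57, SE 0.12, adjusted p = 0.00113; -0.94, SE 0.10, adjusted p = 1.65e-06 against contralateral). The Dicer control group held 42.4, 53.9 and 57.3 CPM, Dicer iKO 51.8, 39.7 and 49.97, Dgcr8 control 63.4, 53.9 and 64.4 and Dgcr8 iKO 46.8, 50.5 and 40.5. The Dicer groups overlapped (log2 fold change -0.12, SE 0.15, adjusted p = 0.624), and the Dgcr8 groups did not (log2 fold change -0.40, SE 0.13, adjusted p = 0.029), a call that was lost under 6 of 15 alternative settings. Acsbg1, a synthetase of the bubblegum family, spanned 4.14 to 5.28 CPM in control and 0.754 to 1.79 CPM in 3 dpc nerves (log2 fold change -1.97, SE 0.29, adjusted p = 7.97e-05). Acsl6, known from brain, spanned 1.57 to 3.25 and 0.963 to 1.89 CPM, fell against uncrushed nerves (log2 fold change -0.91, SE 0.29, adjusted p = 0.014) and did not pass against contralateral nerves (adjusted p = 0.0873).

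Set side by side, 6 members fell in both crush comparisons and both mutants (Acly, Acss2, Me1, Elovl4, Tecr and Fads1) and 3 rose in all 4 (Hacd4, Acsl4 and Acsl5), where 5.92% and 9.12% of 12643 genes tested in all 4 did so. A further 7 members fell against both crush controls and passed in neither mutant, among them Fasn, Acaca, Scd2 and Acsl1, where 8.23% of those genes did so. Srebf1, Scd1, Fads2 and Fads3 had calls of opposite direction in the 2 experiments: Srebf1, Scd1 and Fads2 fell at 3 dpc and rose in Dgcr8 iKO nerves, and Fads3 rose against uncrushed nerves and fell in Dgcr8 iKO nerves. Calls of opposite direction were made for 3.8% of those genes. The Dgcr8 calls of Scd1, Fads2 and Fads3 were lost under 1, 6 and 5 of 15 alternative settings. The experiments used different library kits by the labels, and their difference was not tested. The log2 fold change against contralateral nerves and in Dgcr8 iKO nerves was -3.14 and -1.79 for Acss2, -3.64 and -0.80 for Elovl6, and 2.01 and 2.26 for Hacd4.

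**Figure D4:**
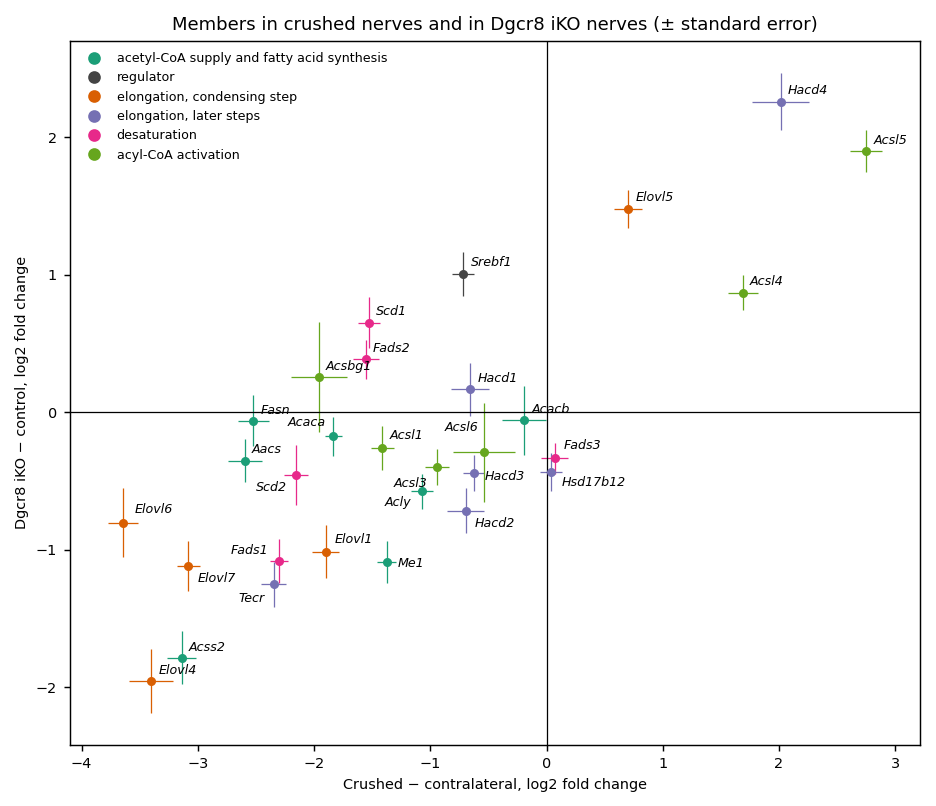
Log2 fold change at 3 dpc against contralateral nerves (horizontal axis) and in Dgcr8 iKO against control nerves (vertical axis) for the 30 tested members, coloured by role; each point is 1 member. Most members lie at lower left, Hacd4, Acsl4, Acsl5 and Elovl5 at upper right, and Srebf1, Scd1 and Fads2 at upper left.

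Between contralateral and uncrushed nerves, 0 of 30 members passed edgeR's test, as did 0% of 17722 genes. At an unadjusted p under 0.05, 7 members were higher (Aacs, Fasn, Srebf1, Elovl1, Tecr, Fads3 and Acsl3) and Hacd1 was lower, where 5.67% and 12.2% of genes were. DESeq2 called 0 members higher and 0 lower, where it called 0.102% and 1.31% of genes, and edgeR's exact test called 0 and 0, against 0.305% and 3.26%. The median log2 fold change of the members was 0.13, against -0.02 over all genes. The difference between the Dgcr8 and Dicer effects passed in 0 of 30 members by edgeR's test and in 0.00738% of 13552 genes in each direction. At an unadjusted p under 0.05, Elovl5 and Acsl5 were more positive and Acss2, Elovl4, Hsd17b12 and Tecr more negative in Dgcr8, where 7.66% and 6.07% of genes were. DESeq2 called 0 members, where 1.25% and 0.48% of genes were called more positive and more negative, and edgeR's likelihood ratio test called Acss2 alone (more negative), against 1.17% and 0.546%.

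Markers of other cell types also changed in these nerves, in both directions. Over all genes tested, 33.8% rose and 33.4% fell at 3 dpc against uncrushed nerves, and 33.5% and 32.9% against contralateral nerves. In Dicer iKO nerves 12.3% rose and 8.88% fell, and in Dgcr8 iKO nerves 23.9% and 20.6%. All 10 macrophage markers rose at 3 dpc, and their summed level was 122.9 to 157.1 CPM in uncrushed, 93.3 to 173.0 in contralateral and 691.9 to 1651.0 in 3 dpc nerves. In the iKO experiment 8 of 10 rose in Dicer and 9 of 10 in Dgcr8 iKO nerves, from 283.5 to 959.7 to 3808.7 to 6859.7 CPM and from 267.9 to 316.7 to 2510.2 to 6035.1 CPM. Of 10 myelin markers, 9 fell against uncrushed and 10 against contralateral nerves (median log2 fold change -4.04 and -4.22), 2 in Dicer (-0.52) and 8 in Dgcr8 iKO nerves (-1.05). The summed myelin level was 33983.8 to 56703.3 CPM in Dicer control, 26062.8 to 33405.5 in Dicer iKO, 51834.0 to 54911.0 in Dgcr8 control and 16774.7 to 32242.1 in Dgcr8 iKO nerves. Of 6 fibroblast markers, 2 rose in Dicer and 5 in Dgcr8 iKO nerves. At 3 dpc 2 fibroblast markers rose and 2 fell against each control group. Their summed level was 2792.4 to 3278.0 CPM in uncrushed, 2400.4 to 3256.4 in contralateral and 1804.0 to 2287.7 in 3 dpc nerves. Of 5 Schwann cell lineage markers 4 fell and 1 rose at 3 dpc, and 2 fell and 1 rose in Dgcr8 iKO nerves, while of 5 endothelial markers 3 rose and 1 fell at 3 dpc against uncrushed nerves. In the mutants 0 endothelial markers rose, and 1 fell in Dicer and 2 in Dgcr8 iKO nerves. Their summed level was lower there without overlap, at 221.9 to 242.9 CPM in Dicer control, 150.4 to 164.8 in Dicer iKO, 232.1 to 268.9 in Dgcr8 control and 154.9 to 208.7 in Dgcr8 iKO nerves. In whole nerves, fewer cells of a type and less RNA per cell cannot be told apart, and the part of these cell types in the members' changes was not tested. Adipocyte markers summed to 47.9 to 60.0 CPM in uncrushed, 48.3 to 61.3 in contralateral and 33.4 to 44.0 in 3 dpc nerves. Of 4 tested against uncrushed nerves, 2 rose, Fabp4 the most (log2 fold change 1.97, adjusted p = 0.0158), and 1 fell. Of 3 tested in Dgcr8 iKO nerves, Fabp4 rose (4.67, adjusted p = 2.35e-06) and Pnpla2 fell (-0.90, adjusted p = 0.00101). In Dicer iKO nerves 0 of 3 passed. The sum was 49.7 to 165.2 CPM in Dicer control and 60.4 to 72.1 in Dicer iKO nerves. It was 59.5 to 72.1 CPM in Dgcr8 control and 50.8 to 136.3 in Dgcr8 iKO nerves, and the highest of these was that of Dgcr8 iKO 2. Without that library 15 members fell and 6 rose in Dgcr8 iKO nerves, where 19.7% and 23% of genes did so.

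**Figure D5:**
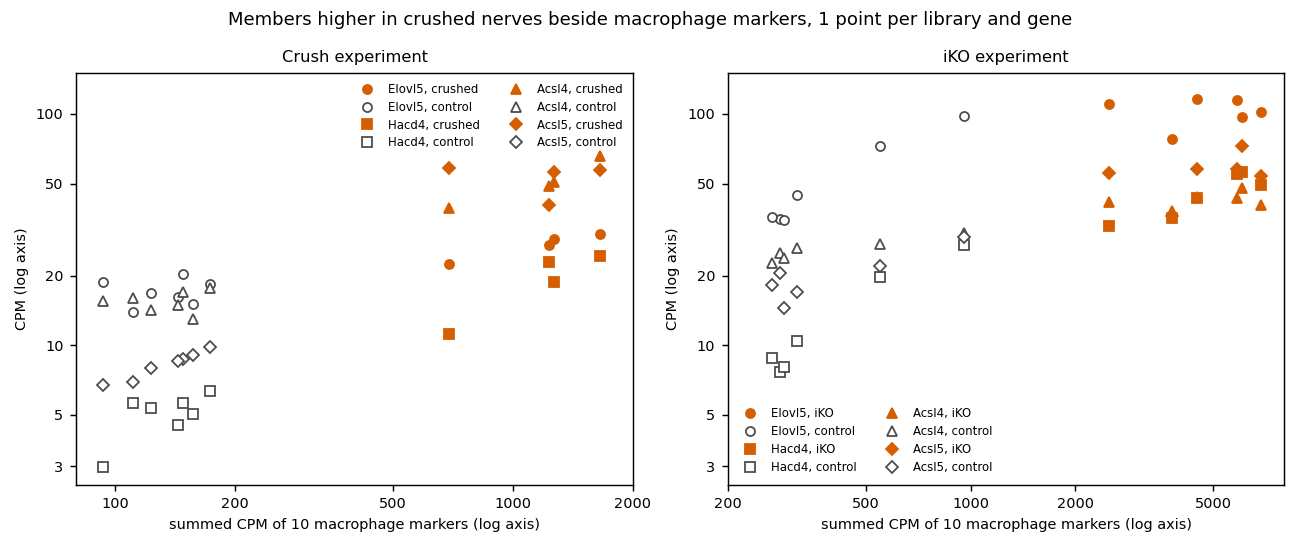
Summed normalized CPM of 10 macrophage markers (horizontal axis, log scale) and normalized CPM of Elovl5, Hacd4, Acsl4 and Acsl5 (vertical axis, log scale) in each library; filled points are 3 dpc or iKO libraries and open points controls. Dicer control 1, at 959.7 CPM of macrophage markers, lies between the other controls and the iKO libraries, and has the highest Hacd4 and Elovl5 of the 6 iKO controls.

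Genes around the pathway were counted on fixed lists. Over all genes tested, 33.4% fell and 33.8% rose at 3 dpc against uncrushed nerves, and 20.6% and 23.9% in Dgcr8 iKO nerves. Of 20 other regulators (SREBP processing, LXR, ChREBP, PPAR and AMPK), 9 fell and 5 rose at 3 dpc against uncrushed nerves, and 7 of 19 fell and 2 rose in Dgcr8 iKO nerves. Insig1, which holds SREBP in the endoplasmic reticulum and is itself an SREBP target, fell in all 4 comparisons (-3.01, -3.41, -1.27 and -1.80, adjusted p = 9.33e-10, 1.75e-11, 0.0112 and 4.01e-05). Srebf2, the regulator of cholesterol synthesis, also fell in all 4 (-2.19, -2.57, -1.01 and -1.67, SE 0.12, 0.11, 0.20 and 0.17, adjusted p = 1.34e-08, 9.22e-11, 0.0137 and 2.66e-05). Pparg, the nuclear receptor of fat and of lipid-laden macrophages, rose in all 4 (1.37, 1.46, 1.29 and 2.08, SE 0.41, 0.34, 0.30 and 0.40, adjusted p = 0.0107, 0.00165, 0.0235 and 0.00147). Among 9 genes of citrate and NADPH supply, 6 rose and 3 fell at 3 dpc. Slc25a1, the citrate carrier that feeds Acly, fell by 2.58 (SE 0.11, adjusted p = 1.43e-09) and the mitochondrial malic enzyme Me2 rose by 2.31 (SE 0.13, adjusted p = 2.1e-08) against uncrushed nerves.

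Fa2h, which hydroxylates the fatty acids of myelin galactolipids, fell by 7.36 on the log2 scale at 3 dpc against uncrushed nerves (SE 0.18, adjusted p = 4.97e-11) and fell by 1.51 in Dgcr8 iKO nerves (SE 0.25, adjusted p = 0.000642). Its list, other desaturases and synthetases, had 3 of 8 fallen and 2 risen at 3 dpc against uncrushed nerves, where 33.4% and 33.8% of all genes did so. In Dgcr8 iKO nerves 3 of 6 had fallen, against 20.6% of all genes. Of 19 fatty acid oxidation genes, 7 rose and 6 fell at 3 dpc against uncrushed nerves (median 0.06), near the 33.8% and 33.4% of all genes, and 1 rose and 5 fell in Dgcr8 iKO nerves (median -0.07), against 23.9% and 20.6%. Acadl, an acyl-CoA dehydrogenase of that pathway, rose by 1.73 (SE 0.12, adjusted p = 1.48e-07). Of 13 genes of glycerolipid synthesis 2 rose and 2 fell at 3 dpc against uncrushed nerves, lower shares than the 33.8% and 33.4% of all genes. Gpam, the first acyltransferase, was at -1.20 (SE 0.11, adjusted p = 1.51e-06). Of 4 tested genes of mitochondrial fatty acid synthesis, 0 passed against uncrushed nerves. Against contralateral nerves 1 rose, Cbr4 (log2 fold change 0.57, SE 0.15, adjusted p = 0.00353), where 33.5% of all genes rose. Slc27a6, a fatty acid transport protein, rose in both mutants (Dicer 2.12, adjusted p = 0.0192; Dgcr8 3.28, adjusted p = 0.000251), while Slc27a1 fell at 3 dpc (log2 fold change -0.80, SE 0.10, adjusted p = 1.69e-05).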

How the data were processed

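Total RNA of 23 mouse SN libraries was sequenced; the labels gave the group and number of each, and 1 uncrushed library has the number 3 in its title and 4 in its description, and the former was kept. By the labels, crush libraries were made with a SMARTer kit for low RNA input and iKO libraries with TruSeq after Ribo-Zero depletion; the study's methods name TruSeq for both, so the experiments were normalized and tested apart. The authors trimmed reads with Trimmomatic, aligned them to GRCm38 with STAR and quantified Ensembl transcripts with RSEM (the Ensembl release is not given in the sources used here). The deposited expected counts are unnormalized RSEM estimates per transcript, and were summed per gene and rounded. The authors' TPM values gave ranks and levels within a group and transcript shares. The deposited FPKM values gave the same rank for 26 to 32 of the 32 members, by group, and entered no test. The deposited GC fraction per transcript was not used.

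edgeR 4.0.16 was run in R 4.3.3, and DESeq2 1.42.0 served as an alternative. For each comparison filterByExpr removed genes under its count minimum (10), TMM factors scaled the libraries, and edgeR's quasi-likelihood F test was run, with p-values adjusted over all genes tested by the Benjamini-Hochberg method; passing means an adjusted p of at most 0.05. SE was obtained as the absolute log2 fold change over the root of F, and 95% intervals from it with the test's total degrees of freedom (residual plus prior). The difference between mutants was an interaction term over the 12 iKO libraries. The fits were also run on simulated counts with known fold changes, the same dispersion for every gene and few changed genes. That setting is simpler than these data, so the run does not measure how far the Dicer calls can be relied on. Positions and transcript types came from GENCODE M21 and promoters from RefSeq. P-values measure the spread between these libraries, and the methods of the study give as many mice as libraries in each group. By those methods the contralateral nerves came from the crushed mice, so crushed and contralateral libraries may be nerves of the same animals. The labels do not name the animals, and the main fit treated all libraries as independent. A block on the replicate number pairs these nerves only if equal numbers mark the same mouse, which the labels do not state.

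The members, lists and naming rule were chosen with earlier results of these data known. Values in every library are given for up to 3 members with the highest and 3 with the lowest change per comparison, the 2 most abundant per role in the crush libraries, Srebf1, and members of opposite direction; others by range. Listed genes are those with the largest changes of their list. Alternatives were RLE normalization, no count filter, 10 counts in every library, DESeq2, edgeR's exact or likelihood ratio test, all groups in one fit, a replicate block, protein-coding genes, a 2-fold limit and leaving out each replicate. Counting only coding transcripts was added after seeing the data. Detection limits cover counting error only. No replicate was a copy of another (chi-square per degree of freedom 4.36 to 42.4).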

Additional observations from a re-analysis of the deposited data

Results flagged for a closer look

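Among the groups of 4 libraries, 64 sets of member CPM values were tested for a single library far from the other 3, and 5 were marked, where chance marks about 1 set in 20; groups of 3 libraries were not tested. Acsl1 was at 38.6 CPM in contralateral replicate 4, below the other contralateral nerves. Elovl7 was at 99.1 CPM in contralateral replicate 2, above the other 3. Acsl5 was at 40.3 CPM and Fads1 at 57.2 CPM in 3 dpc replicate 4, each below the other 3 dpc nerves, and Hacd2 was at 9.86 CPM in 3 dpc replicate 2, above them. The gap to the nearest library was 0.876 to 0.93 of the whole range in these sets, above the 95% critical value of Dixon's test. The 3 values at 3 dpc lay on the same side of the uncrushed nerves as the rest of their group. Acsl1 in contralateral replicate 4 lay below all uncrushed nerves, at 39.6, 42.9 and 38.7 CPM, while the other contralateral nerves lay above them; Acsl1 did not pass edgeR's test between contralateral and uncrushed nerves (adjusted p = 0.463).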

How the results depend on the processing

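Over all members, comparisons and alternatives, 2963 values were recomputed, of which 2855 kept direction and side of the threshold, 84 lost and 24 gained a call, and 0 reversed. With the 2-fold limit, the members that rose were 3 against uncrushed nerves (5 without the limit), 2 in Dicer iKO (4) and 4 in Dgcr8 iKO nerves (7), and those that fell were 0 in Dicer (6) and 7 in Dgcr8 iKO nerves (14); this limit is stricter by construction. Leaving out single libraries gave 0 to 3 risen and 0 to 11 fallen members in Dicer iKO nerves, where 668 to 1735 and 173 to 1330 of 13226 to 13291 genes did so. It gave 0 to 1 members with a more positive effect in Dgcr8 than in Dicer iKO nerves, namely Elovl5 without Dicer control 3 (difference 1.28, adjusted p = 0.0163), as for 320 of 13791 genes. The likelihood ratio test made 1 call in the other direction, Acss2 (difference -0.98, adjusted p = 0.0432), as for 74 of 13552 genes. Without a count filter 1 member, Hacd1, was lower in contralateral than uncrushed nerves (-0.56, adjusted p = 0.0209), as were 599 of 36953 genes. The cause was not tested. The other ranges without 1 library were 4 to 5 risen and 21 to 23 fallen against uncrushed, 4 and 22 to 23 against contralateral nerves, and 6 to 7 and 10 to 15 in Dgcr8 iKO nerves. Over all genes they were 5418 to 5983 risen and 5199 to 5815 fallen of 17249 to 18346 against uncrushed nerves. Against contralateral nerves they were 5088 to 5708 and 5099 to 5728 of 16867 to 17189. In Dgcr8 iKO nerves they were 2650 to 3085 and 2105 to 2649 of 13426 to 13508. Counting coding transcripts alone gave 5 risen and 22 fallen, 4 and 21, 4 and 5, and 7 and 13 in the crush (uncrushed, contralateral), Dicer and Dgcr8 comparisons. Over all genes, in the same order, it gave 5597 and 5391 of 16947, 5339 and 5163 of 16181, 1478 and 1013 of 12896, and 3031 and 2563 of 13108.

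Replicate numbers are shared between groups, but same-numbered libraries did not deviate together: the mean correlation of their deviations was 0.050 for 3 dpc and contralateral nerves, -0.0127 for 3 dpc and uncrushed, -0.0022 for contralateral and uncrushed, -0.0744 for Dicer and -0.0536 for Dgcr8 groups. With the replicate number as a block, 5 members rose and 22 fell against uncrushed, 4 and 22 against contralateral nerves, 0 and 0 in Dicer and 6 and 11 in Dgcr8 iKO nerves. Over all genes, the block left 5656 risen and 5426 fallen of 17433 against uncrushed and 5545 and 5522 of 16667 against contralateral nerves. In Dicer iKO nerves it left 687 and 242 of 13045 genes, where 1605 and 1159 passed without it. In Dgcr8 iKO nerves it left 2898 and 2403 of 13252. Depth limits the statements on Elovl2 and Elovl3, which were at or near the detection limit.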
